A study of Mus musculus with 21 samples.

Results

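The genes described here encode the ring that holds sister chromatids together in oocytes and in dividing somatic cells, the shugoshins that guard it and the protease that opens it. They were chosen by symbol in the expression file of every library: Rec8, Smc1b, Stag3, Rad21, Smc1a, Smc3, Stag2, Sgo1, Sgo2a and Espl1, 10 genes of the 55335 gene identifiers listed. All 10 were found in all 21 libraries.

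Libraries came from oocytes and granulosa cells of female ICR mice, an outbred stock, in 5 groups: Young mice, naturally Aged mice, and Aged mice that had received human umbilical cord mesenchymal stem cells under the ovarian capsule. The transplanted cells were unsorted (Aged + Unsorted) or sorted for high or low surface LRP1 (Aged + LRP1high, Aged + LRP1low), LRP1 being an endocytic receptor of the low-density lipoprotein receptor family. Young mice were 6 to 8 weeks old and Aged ones 18 months, and transplanted mice were sampled 3 weeks after they received the cells. The comparisons ask what ageing and each kind of transplanted cell do to the transcriptome of mouse oocytes and granulosa cells. Oocytes numbered 3 Young, 2 Aged, 2 Aged + Unsorted, 3 Aged + LRP1high and 2 Aged + LRP1low libraries. Granulosa cells numbered 1, 2, 1, 3 and 2 libraries in the same order. Oocytes were freed of cumulus cells with hyaluronidase and of the zona pellucida with pronase before lysis, and the granulosa cells were those released from the complexes. The number of cells and of mice behind a library is not given in the sources used here, so p-values measure the spread between libraries, which may in part be technical. The authors' value used throughout is FPKM, which counts fragments on a gene after adjusting for its length and for the total of its library.

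Cohesin is a ring of 2 SMC proteins, a kleisin that closes it and a SA/STAG protein bound to the kleisin. Germ cells add meiotic versions: REC8 in place of RAD21, SMC1B in place of SMC1A and STAG3 in place of STAG1 or STAG2, while SMC3 serves both kinds of ring. In mouse oocytes the REC8 ring is loaded before birth and has to last until ovulation, and its loss with age is a well known candidate source of chromosome missegregation. Shugoshin 2, encoded in mouse by Sgo2a, brings the phosphatase PP2A to the centromere and shields REC8 there from separase, the product of Espl1, whereas shugoshin 1 acts mainly in mitosis.

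Several libraries went against their labels, which touches each comparison below. The median of 10 oocyte markers (the zona pellucida genes Zp1, Zp2 and Zp3, with Bmp15, Gdf9, H1foo, Oosp1, Ooep, Nlrp5 and Dppa3) was 84.9 to 1001 FPKM in 8 of the 12 oocyte libraries, but 0.892 in Young replicate 1, 11.6 in Aged replicate 1, and 5.02 and 7.77 in Aged + LRP1low. Summed over the 10 markers, the Young oocyte libraries held 11.4 to 9689.6 FPKM, the Aged ones 153 and 9051, those of Aged + Unsorted 8121 and 14621, those of Aged + LRP1high 3507 to 9246, and those of Aged + LRP1low 53.0 and 166. Of the 10 markers, 1 was listed at 0 in Young replicate 1 and 1 in Aged + LRP1low replicate 2. The 10 granulosa cell markers summed to 0.307 to 76.6 FPKM over the oocyte libraries. Of the granulosa cell libraries, the granulosa markers had a median of 74.9 in Young replicate 1 and 21.4 in Aged + LRP1high replicate 3, and under 1 FPKM in the other 7. The granulosa library Aged + Unsorted replicate 1 held oocyte markers at a median of 799.7 FPKM. In the text below, "oocyte-marker-rich" stands for the 8 oocyte libraries with a marker median above 50 and "marker-poor" for the other 4, a division made after the values were seen and used only to describe. In bulk samples fewer cells of a type and less RNA per cell cannot be told apart.

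As a measure of signal from genes that ovarian cells do not use, 331 vomeronasal receptor genes were followed. Their mean was 0.0273 to 0.618 FPKM in the marker-rich libraries, 0.494 in Young replicate 1 and 2.65 to 2.95 in the other 3 marker-poor ones. Depth was 0.791 to 3.40 gigabases of aligned sequence in the marker-rich libraries and 0.278 to 1.35 in the marker-poor ones. A single gene, Gm10800, took 37.5% to 78.1% of all TPM in the 4 marker-poor libraries and up to 86.6% in granulosa cells. It was also the highest gene of the marker-rich oocyte library Aged replicate 2, at 17.4% of TPM. Housekeeping genes were themselves listed at 0 in places (Rplp0 and Gapdh each in 3 of the 21 libraries), so a member with no value is described as listed at 0, not as absent.

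The kleisins went in opposite ways. Rec8 (chr14:55618037-55625395, plus strand, GRCm38) was listed at 0 in 7 of the 12 oocyte libraries. It read 1.03, 0 and 0 FPKM in Young replicates 1 to 3, 6.10 and 0 in the Aged ones, 0 and 0 after unsorted cells (Aged + Unsorted), 0, 0.310 and 0 in Aged + LRP1high, and 5.06 and 10.8 in Aged + LRP1low. The 4 libraries at 1 FPKM or more were the 4 marker-poor ones, and no marker-rich library exceeded 0.310. Rad21 (chr15:51962240-51991747, minus strand), the mitotic kleisin, had the reverse distribution. It read 1.06, 40.1 and 24.3 FPKM in the Young libraries, 3.08 and 19.9 in the Aged ones, 26.5 and 43.3 after unsorted cells, 33.6, 32.9 and 24.5 in Aged + LRP1high, and 2.70 and 1.95 in Aged + LRP1low. All 8 marker-rich libraries lay between 19.9 and 43.3 FPKM, and the 4 marker-poor ones between 1.06 and 3.08. Rec8 gave at most 0.934% of the FPKM of Rec8 and Rad21 together in the marker-rich libraries, against 49.2% to 84.7% in the marker-poor ones.

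Against the vomeronasal receptors, Rec8 was above their 95th percentile in 0 of 8 marker-rich and in 1 of 4 marker-poor libraries, Aged + LRP1low replicate 2. Rad21 was above it in 8 of 8 and 0 of 4. These counts rest on 331 receptor genes measured in the same library. Whether the low Rec8 signal of the marker-poor libraries comes from the same source as the receptor signal was not tested.

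**Figure D1:**
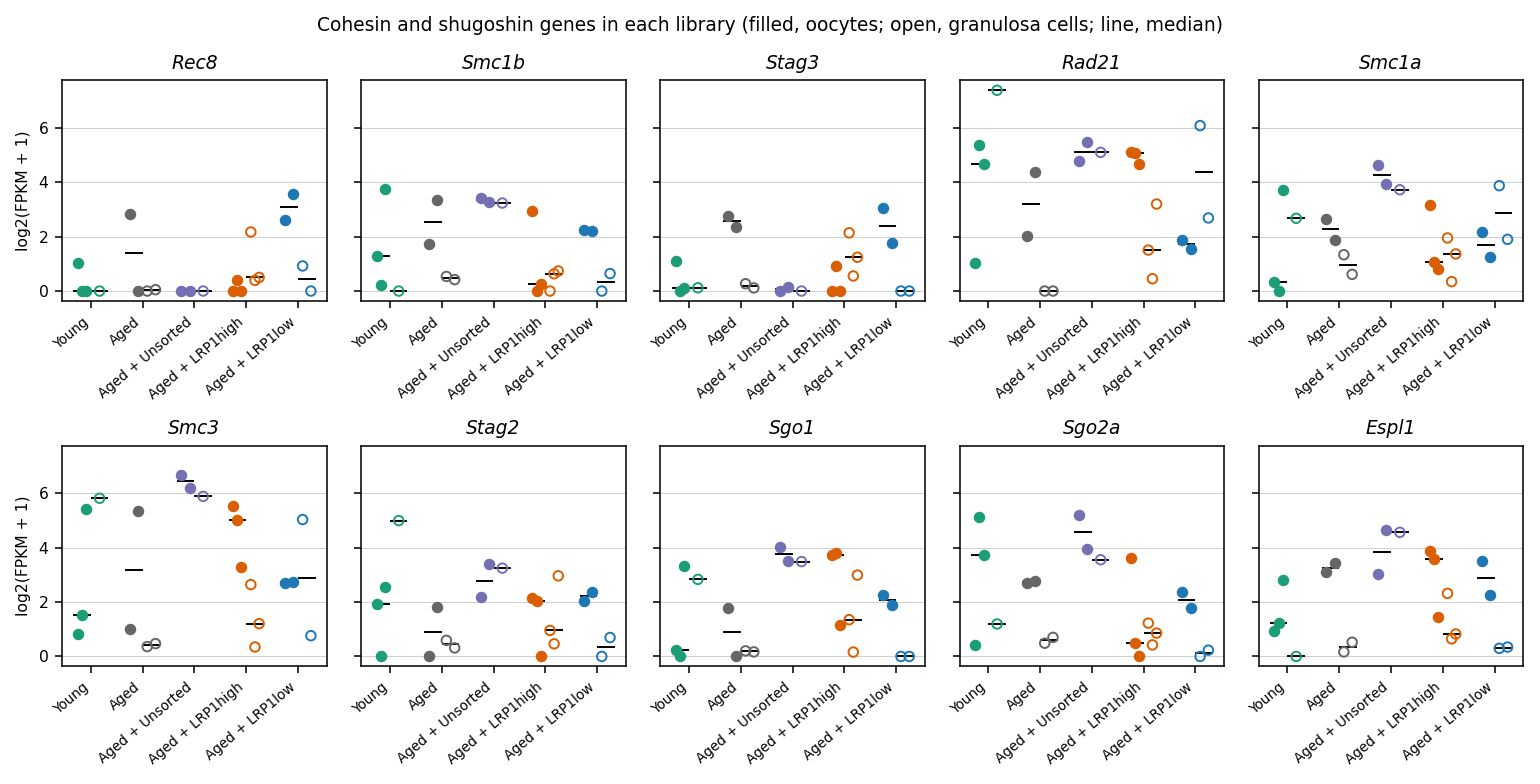
Level of the 10 genes in each of the 21 libraries, as log2(FPKM + 1) on the y axis by group on the x axis. Filled points are oocyte libraries, open points granulosa cell libraries, and the lines their medians. Rec8 sits at or near 0 in 8 oocyte libraries and Rad21 between 19.9 and 43.3 FPKM in the same 8.

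The SMC subunits included the meiotic paralogue that most oocyte libraries held. Smc1b (chr15:85064689-85131964, minus strand) read 1.44, 0.173 and 12.5 FPKM in the Young libraries, 2.32 and 9.09 in the Aged ones, 9.61 and 8.62 after unsorted cells, 6.62, 0 and 0.194 in Aged + LRP1high, and 3.72 and 3.58 in Aged + LRP1low. The libraries of Young and of Aged + LRP1high thus spanned nearly the whole range, and no group stood apart. Smc1b exceeded the receptor percentile in 7 of 8 marker-rich libraries, with a median of 7.62 FPKM. Its somatic paralogue Smc1a (chrX:152016428-152062694, plus strand) read 0.253, 0 and 12.3 FPKM in the Young libraries, 5.33 and 2.66 in the Aged ones, 23.9 and 14.2 after unsorted cells, 8.06, 1.10 and 0.755 in Aged + LRP1high, and 3.50 and 1.38 in Aged + LRP1low. Both Aged + Unsorted libraries were above all other oocyte libraries. Smc1b and Smc1a varied together, with a Pearson r of 0.82 over the 12 oocyte libraries, given as a description since the libraries share their depth and oocyte content. Smc1b gave 0% to 100% of the pair in the marker-rich libraries (median 41.4%) and 30.4% to 85.1% in the marker-poor ones.

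The 200 bases before the start of each of these paralogues are shown because both genes were read in most oocyte libraries and varied together. They were taken from the RefSeq promoter table (GRCm38.p6), which holds 8 of the 10 members, are written 5′ to 3′ on the strand of the gene, and end at the base before the start that the deposited files give. Capitals mark an E2F-type motif (TTCCCGC on either strand). The motif begins 41 bases before the start of Smc1b, and is not in the window of Smc1a. The palindromic E-box CACGTG is in neither. Over all 32851 promoter windows of 200 bases, 3.28% hold the first motif and 5.26% the second.
Smc1b, chr15:85131965-85132164, minus strand: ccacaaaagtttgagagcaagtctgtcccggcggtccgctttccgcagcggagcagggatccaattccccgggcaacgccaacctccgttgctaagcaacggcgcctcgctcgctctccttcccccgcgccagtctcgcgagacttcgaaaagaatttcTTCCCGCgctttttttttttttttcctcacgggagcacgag
Smc1a, chrX:152016228-152016427, plus strand: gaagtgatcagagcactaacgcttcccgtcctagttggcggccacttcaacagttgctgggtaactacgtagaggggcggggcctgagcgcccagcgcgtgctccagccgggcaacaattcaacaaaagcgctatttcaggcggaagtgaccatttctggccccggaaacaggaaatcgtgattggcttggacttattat

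Smc3 (chr19:53600398-53645833, plus strand), the subunit common to mitotic and meiotic rings, was the highest of the 10 genes by FPKM in 5 of the 12 oocyte libraries, ahead of Rad21 with 3. It read 0.793, 1.86 and 41.5 FPKM in the Young libraries, 1.02 and 39.5 in the Aged ones, 102 and 72.9 after unsorted cells, 45.6, 31.8 and 8.88 in Aged + LRP1high, and 5.56 and 5.74 in Aged + LRP1low. The Aged + Unsorted libraries were again above all others, and Young and Aged each held a library near 1 and a library near 40 FPKM. Among the marker-rich libraries Young replicate 2, at 1.86 FPKM, was the lowest, although the same library had one of the highest Rad21 values.

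Of the SA subunits, Stag3 (chr5:138280240-138312393, plus strand), which is confined to germ cells, read 1.17, 0 and 0.0827 FPKM in the Young libraries, 5.86 and 4.15 in the Aged ones, 0 and 0.101 after unsorted cells, 0, 0.877 and 0 in Aged + LRP1high, and 7.21 and 2.44 in Aged + LRP1low. Both Aged and both Aged + LRP1low libraries were above every library of the other 3 groups. Unlike Rec8, Stag3 exceeded the receptor percentile in 2 of 8 marker-rich libraries, Aged replicate 2 (4.15 against 3.12 FPKM) and Aged + LRP1high replicate 2 (0.877 against 0.326 FPKM). The median of the 8 marker-rich libraries was 0.0413 FPKM and 4 of them were listed at 0. Stag2 (chrX:42149317-42277185, plus strand), the somatic SA subunit, read 2.85, 0 and 4.92 FPKM in the Young libraries, 0 and 2.54 in the Aged ones, 3.54 and 9.45 after unsorted cells, 3.43, 3.09 and 0 in Aged + LRP1high, and 3.15 and 4.23 in Aged + LRP1low. It exceeded the receptor percentile in 5 of 8 marker-rich libraries, whose range was 0 to 9.45 FPKM, and in 1 of 4 marker-poor ones, whose range was 0 to 4.23.

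**Figure D2:**
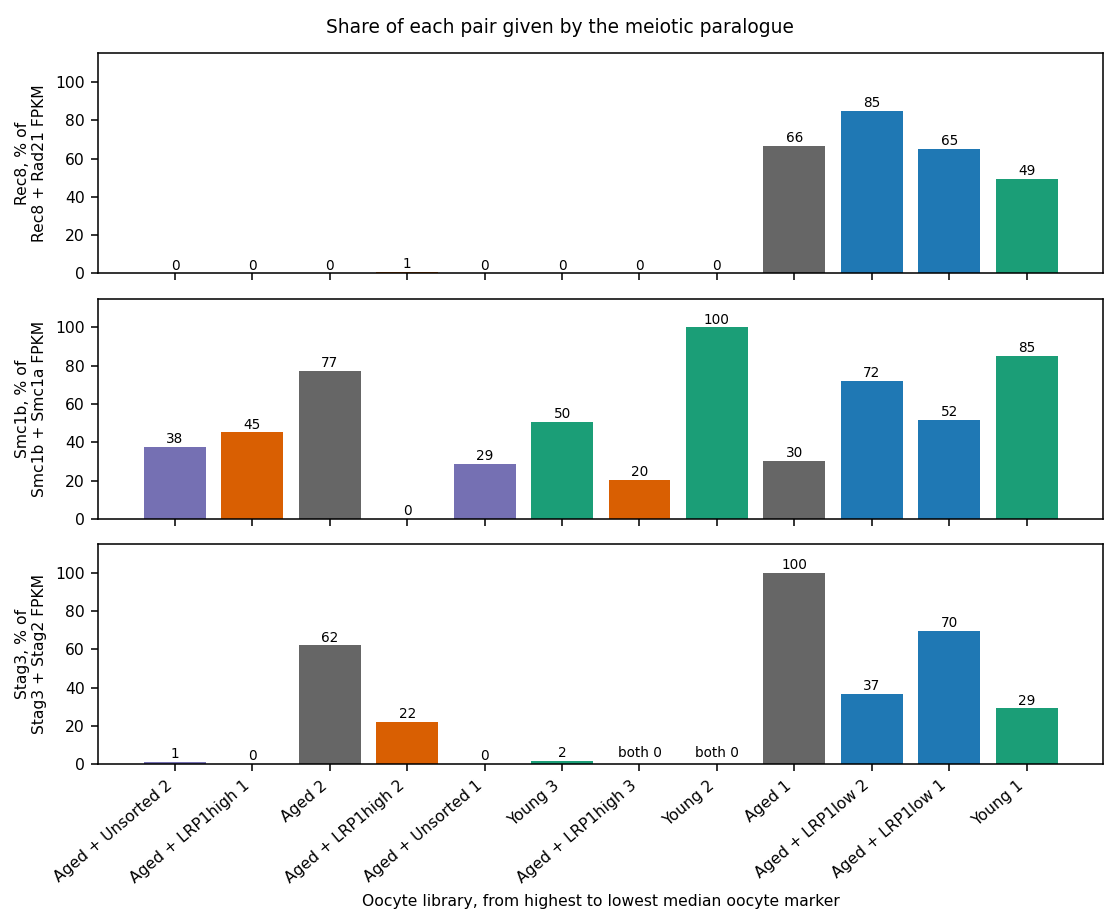
Share of each pair given by the meiotic gene, in percent of the summed FPKM of both genes (y axis), in the 12 oocyte libraries ordered from the highest to the lowest oocyte marker median (x axis, bars coloured by group). Rec8 stays at or under 0.934% in the first 8 libraries and lies between 49.2% and 84.7% in the last 4, while Smc1b shows no such step.

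The shugoshins and separase were read in most marker-rich libraries. Sgo1 (chr17:53674786-53689333, minus strand) read 0.175, 0 and 9.02 FPKM in the Young libraries, 2.40 and 0 in the Aged ones, 15.3 and 10.3 after unsorted cells, 12.2, 12.9 and 1.22 in Aged + LRP1high, and 3.74 and 2.68 in Aged + LRP1low. Both Aged libraries were below both Aged + Unsorted and both Aged + LRP1low libraries. Sgo2a (chr1:57995971-58025899, plus strand), the shugoshin that protects REC8, read 0.352, 33.9 and 12.4 FPKM in the Young libraries, 5.54 and 5.88 in the Aged ones, 36.1 and 14.7 after unsorted cells, 11.3, 0.406 and 0.0169 in Aged + LRP1high, and 4.11 and 2.45 in Aged + LRP1low. Young and Aged + LRP1high each spanned from below 0.5 to above 11 FPKM. Reads may be split between Sgo2a and its mouse paralogue Sgo2b, which had a median of 0.144 FPKM in the marker-rich libraries. Espl1 (chr15:102296266-102324357, plus strand) read 0.895, 1.35 and 6.03 FPKM in the Young libraries, 7.55 and 9.77 in the Aged ones, 7.25 and 24.1 after unsorted cells, 13.9, 11.1 and 1.72 in Aged + LRP1high, and 10.5 and 3.81 in Aged + LRP1low. It was above 0 in all 12 oocyte libraries, as were Rad21, Smc3 and Sgo2a, and all 3 Young libraries were below both Aged ones.

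Of the members, 5 overlap a gene on the opposite strand: Smc1b with Gm10923, Smc1a with Gm15267, Stag2 with Gm37564, Sgo2a with Kctd18 and Espl1 with Gm49480. The sources differ on whether the libraries kept strand, so reads of the overlap cannot be told apart. In the marker-rich libraries these partners reached at most 5.89 FPKM for Kctd18 and 0.252 for the other 4. In the marker-poor ones they reached 21.4 for Kctd18, 9.12 for Gm49480, 7.36 for Gm37564, 5.71 for Gm10923 and 1.21 for Gm15267.

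Ordered by group median, Aged + Unsorted was first in oocytes for 8 of the 10 members, all but Rec8 and Stag3. Of the 4 pairs of neighbours in each such order, at most 1 did not overlap, so for every member most neighbours did not differ beyond their spread. The orders are a description, with 2 or 3 libraries in a group.

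Differences were fitted with limma on log2(FPKM + 1), and calls required a change of more than 1.5-fold together with an adjusted p below 0.05, the Benjamini-Hochberg adjustment running over all genes tested. In Aged against Young oocytes, 0 of the 10 genes were called, beside 0.0964% of the 28004 genes tested. An unadjusted p under 0.05 was found for 1 of the 10 (Stag3), beside 2421 of the 28004. The Aged and Young libraries did not overlap for Stag3 and Espl1, both higher in Aged, that is for 2 of 10 members beside 11.7% of all genes. The fitted difference was 2.16 on the log2 scale for Stag3 (SE 0.67, limma adjusted p = 0.230) and 1.61 for Espl1 (SE 0.94, limma adjusted p = 0.515), beside a median of 0.94 over all genes tested. Under quantile normalization the difference of Espl1 was -0.31. Leaving out Aged replicate 2, which leaves the marker-poor Aged replicate 1 alone in its group, 2 of 10 members were called, Rec8 (limma adjusted p = 0.0109) and Stag3 (limma adjusted p = 0.0299), both higher in Aged, beside 33.0% of all genes. In that fit, and in each below that leaves 1 Aged library, the lone library is assumed to vary like those of the other groups. With only the marker-rich libraries, which leaves Aged replicate 2 alone in its group, 8 members could be tested. Espl1 was higher in Aged by 1.41 there, and Stag3 could not be tested.

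Mitotic cohesin and shugoshin genes lay higher in both Aged + Unsorted oocyte libraries than in both Aged ones. However, none of the 10 genes was called, 0 beside 0% of all genes. An unadjusted p under 0.05 was found for 2 of 10 (Sgo1 and Stag3), beside 2447 of the 28004 genes tested. Groups did not overlap for 7 of 10 members, beside 21.6% of all genes. Of these, 6 were higher (Rad21, Smc1a, Smc3, Stag2, Sgo1 and Sgo2a), beside 10.3% of all genes, and Stag3 was lower. The largest fitted differences were 3.27 for Smc3 (SE 1.60, limma adjusted p = 0.436), 2.88 for Sgo1 (SE 1.24, limma adjusted p = 0.436) and -2.50 for Stag3 (SE 0.74, limma adjusted p = 0.183). The other 4 higher members differed by 1.85 to 2.02, while the median of all genes was -0.86. The oocyte markers moved the same way: both Aged + Unsorted libraries were marker-rich and 1 of the 2 Aged libraries was not, and the part of this in the member values was not tested. Within the marker-rich libraries alone, the 6 members stayed higher, Smc3 by 1.11 and Sgo1 by 3.76. These differences rest on Aged replicate 2 as the only Aged library. Against the marker-poor Aged replicate 1 alone, without Aged replicate 2, 3 of 10 members were called, beside 36.9% of all genes. Rec8 (limma adjusted p = 0.00772) and Stag3 (limma adjusted p = 0.0204) were lower and Smc3 (limma adjusted p = 0.0413) was higher.

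In Aged + LRP1high against Aged oocytes, 0 of 10 members were called, beside 0.771% of all genes. Only Stag3 of the members had an unadjusted p under 0.05, beside 3043 of the 28004 genes tested. Stag3 was lower in all 3 Aged + LRP1high libraries than in both Aged ones, by 2.27 on the log2 scale (a difference of -2.27, SE 0.67, limma adjusted p = 0.142). Rad21 was higher in all 3, by 1.75 (SE 1.16, limma adjusted p = 0.385). These 2 of 10 members without overlap stand beside 16.2% of all genes, 3.85% higher and 12.4% lower. The median difference of all genes was -1.05. With only marker-rich libraries Rad21 differed by 0.57, and Stag3 could not be tested because its mean fell under the filter. Without Aged replicate 2, again against the marker-poor library alone, Rec8 (limma adjusted p = 0.00669) and Stag3 (limma adjusted p = 0.0217) were called lower, 2 of 10 members beside 39.5% of all genes.

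In Aged + LRP1low against Aged oocytes, 0 of 10 members were called, beside 3.17% of all genes. An unadjusted p under 0.05 was found for 0 of 10, beside 3962 of the 28004 genes tested. Groups did not overlap for 4 of 10 members, beside 36.6% of all genes, 27.1% higher and 9.55% lower. Stag2 and Sgo1 were higher in Aged + LRP1low, by 1.31 (SE 1.08, limma adjusted p = 0.654) and 1.18 (SE 1.24, limma adjusted p = 0.724). Rad21 and Sgo2a were lower, with differences of -1.48 (SE 1.27, limma adjusted p = 0.667) and -0.68 (SE 1.48, limma adjusted p = 0.866). The median of all genes was 0.68, and under quantile normalization Stag2 and Sgo1 turned to -0.31 and -0.018. Without the marker-poor Aged replicate 1, Rec8 was called higher in Aged + LRP1low (limma adjusted p = 0.0185), 1 of 10 members beside 22.7% of all genes. The 3 comparisons of transplanted with Aged mice share the same 2 Aged libraries, so their values are not independent of each other.

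Aged + LRP1high and Aged + LRP1low oocytes differed most over all genes. The members called, Rec8 and Stag3, were no larger a share of the 10 than the share called over all genes. Rec8 was lower in Aged + LRP1high, with a difference of -2.95 (SE 0.83, limma adjusted p = 0.0340), and so was Stag3, with a difference of -2.11 (SE 0.67, limma adjusted p = 0.0444). These 2 of 10 members stand beside 26.0% of all genes called in either direction and 24.8% called lower, and the median difference of all genes was -1.89. Rad21 was higher in all 3 Aged + LRP1high libraries, by 3.23 (SE 1.16), just above the threshold (limma adjusted p = 0.0572), and was called when only these 5 libraries were fitted (limma adjusted p = 0.00180) or when the 6 genes that dominate libraries were taken out of TPM (limma adjusted p = 0.0496). These 2 settings called 66.9% and 50.3% of all genes. Smc3 was higher in all 3 as well, by 1.89 (SE 1.46, limma adjusted p = 0.307). Groups did not overlap for these 4 of 10 members, 2 higher and 2 lower, beside 69.4% of all genes, 6.82% higher and 62.6% lower.

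The calls of Rec8 and Stag3 were lost when any 1 of the 5 libraries of these groups was left out, with adjusted p of 0.0724 to 0.213 for Rec8 and 0.0721 to 0.303 for Stag3 in limma, and with a pseudocount of 0.1 (limma adjusted p = 0.0572 and 0.0634) or quantile normalization (limma adjusted p = 0.267 and 0.940). They were lost as well with the replicate number as a block (limma adjusted p = 0.0884 and 0.103). The groups also differed in content. Vomeronasal receptors averaged 0.0631 to 0.121 FPKM in Aged + LRP1high and 2.71 to 2.95 in Aged + LRP1low, at depths of 2.29 to 3.15 and of 0.278 to 0.515 gigabases. The oocyte markers Bmp15, Oosp1 and H1foo were called higher in Aged + LRP1high, by 7.32 to 7.97, and 3 of 9 granulosa, 3 of 5 stromal, 2 of 6 immune, 2 of 5 luteal, 1 of 4 endothelial and 0 of 2 red blood cell markers were called lower by limma. The part of these in the differences of Rec8, Stag3 and Rad21 was not tested. Both Aged + LRP1low libraries are marker-poor, so that the comparison cannot be made within marker-rich libraries.

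**Figure D3:**
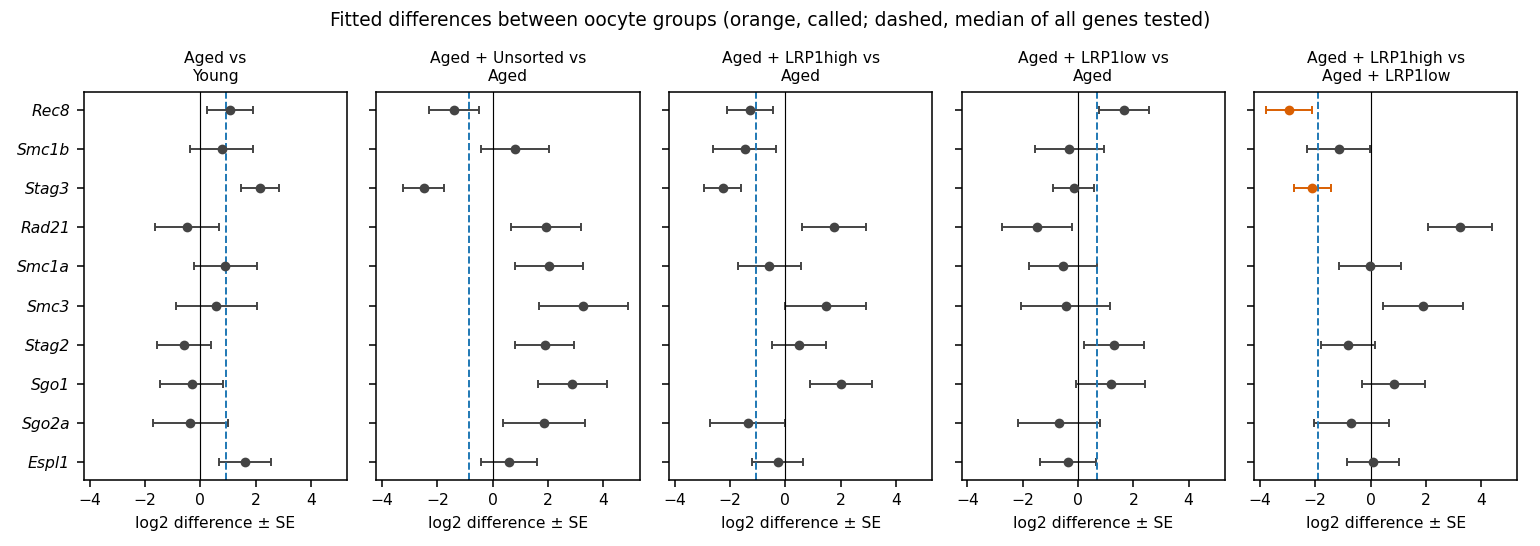
Fitted differences of the 10 genes between oocyte groups, as log2 differences of FPKM + 1 with their standard errors (x axis, limma), 1 panel for each comparison. Orange points are called, and the dashed line is the median of all 28004 genes tested, which lies between -1.89 and 0.94. Rec8 and Stag3 are the only called points, in the last panel.

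The likest genes of Rec8 and Stag3 were not cohesin genes. The 5 genes whose log2 values were most like those of Rec8 over the 12 oocyte libraries were Gm12332, Gm10340, Gm33680, Vmn1r207-ps and Adgrf5, with Pearson r of 0.998 to 0.999. The first 3 are predicted genes and Vmn1r207-ps is a vomeronasal receptor pseudogene. For Stag3 they were Gad1, Dok6, Tmem176a, 4933417O13Rik and Pla2g2c (r of 0.985 to 0.990), Gad1 encoding the glutamate decarboxylase of inhibitory neurons. For Smc1b they included Lin52, Slc6a20a, Taf1b and Appbp2 (r of 0.968 to 0.976). These are the highest of 28004 correlations, over libraries that share depth and content and that fall into marker-rich and marker-poor ones, and are given as a description.

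**Figure D4:**
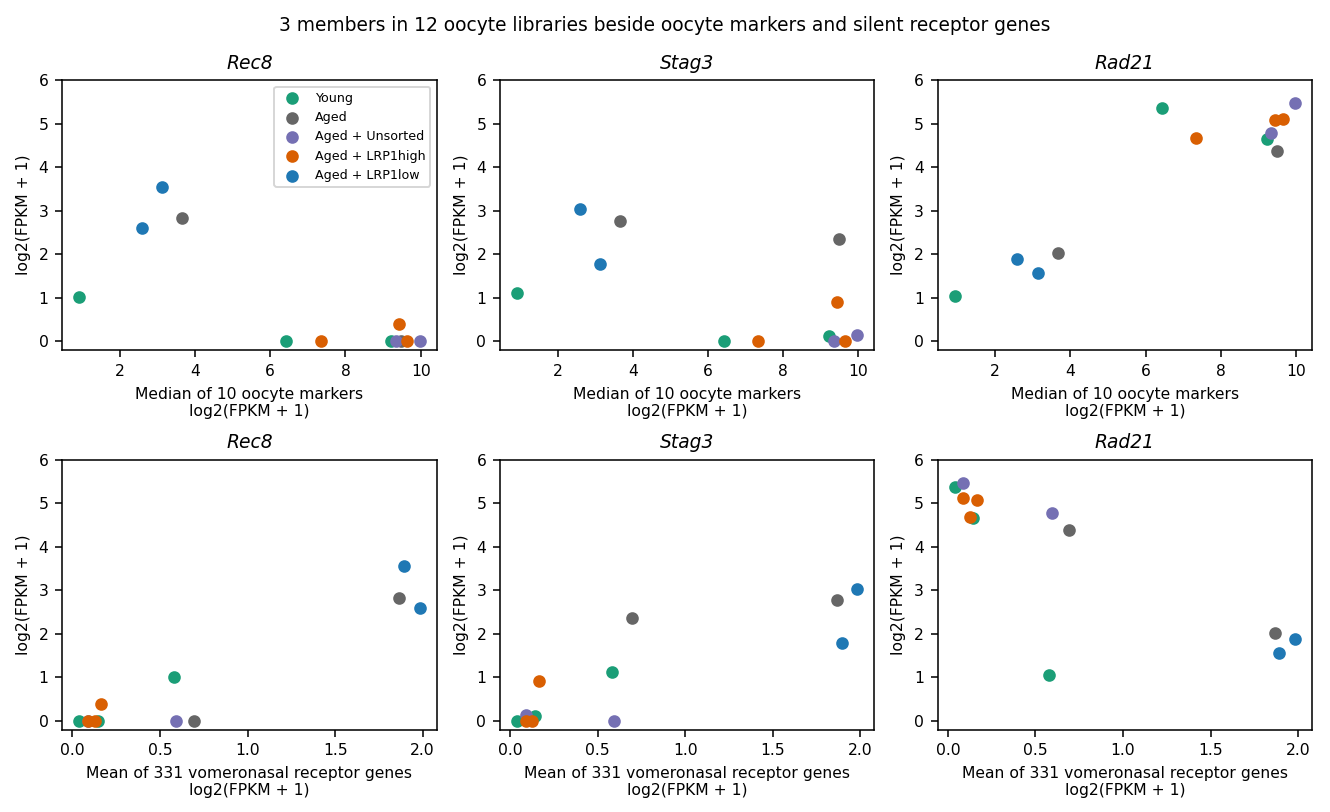
Level of Rec8, Stag3 and Rad21 (y axis, log2(FPKM + 1)) in the 12 oocyte libraries against the median of 10 oocyte markers (top) and the mean of 331 vomeronasal receptor genes (bottom), both as log2(FPKM + 1). Points are libraries coloured by group. All 8 libraries with high oocyte markers hold Rad21 at 19.9 FPKM or more and Rec8 at 0.310 or less.

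The partners of cohesin and the other listed genes of the pathway varied widely in level. Of 52 genes, 36 had a median in the marker-rich oocyte libraries above that of Smc1b, and 8 had a median under 1 FPKM, among them Hdac8, which removes the acetyl mark from SMC3, at 0 and Aurkb, the somatic Aurora kinase of the centromere, at 0.0648. At the upper end the median level was 2119.7 FPKM for Pttg1, which encodes securin, the inhibitor of separase, and 176 for Ccnb1, which encodes cyclin B1, a second brake on separase. Smc4 of the condensin complexes had a median of 238 FPKM, Esco2, the acetyltransferase that locks cohesin on replicated DNA, 92.4, Wapl, which releases cohesin, 64.9, and Cdca5, which encodes sororin, its antagonist, 49.7. Rad21l, the other meiotic kleisin, had a median of 0 and a maximum of 0.116. Meikin, the meiosis-specific partner of shugoshin at the kinetochore, had a median of 8.89 FPKM, and Aurkc, the germ cell Aurora kinase, of 27.4. In the marker-poor libraries the medians were lower for Pttg1 (6.36), Ccnb1 (6.66), Smc4 (7.03), Esco2 (4.66), Wapl (3.38) and Cdca5 (3.69 FPKM). They were lower as well for Meikin (2.49) and Aurkc (1.17), but higher for Hdac8 (3.03), Aurkb (4.85) and Rad21l (1.34 FPKM).

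Calls in these lists were found in 2 comparisons only. For Aged + LRP1high against Aged + LRP1low, 1 of 9 genes for loading, release and acetylation was called higher (Wapl, by 5.04) and 1 lower (Pds5b, with a difference of -2.69). Of 16 genes for centromeric protection, Ppp2r5c, a targeting subunit of PP2A, was higher by 3.49 and Ppp2cb, a catalytic subunit of PP2A, lower with a difference of -2.34. Of 4 genes for separase control, Pttg1 was higher by 7.65. Of 8 condensin genes, Smc4 and Ncapg were higher by 5.04 and 4.70 and Ncapd2 lower with a difference of -3.01. Of 7 proliferation markers, Pcna was higher by 4.15, and 0 of 6 SMC5/6 genes were called. The median difference ran from 0.61 for condensins to 2.39 for separase control over these 6 lists, beside -1.89 for all genes, and of the other 2 cohesin subunits only Stag1 could be tested, with a difference of -2.19 that was not called. Both directions thus occurred within 3 of the lists. Over the 7 lists, 6 of the 51 genes tested were called higher and 3 lower. The background of 26.0% was made mostly of lower calls, with 340 genes called higher and 6951 lower among 28004. In the other 4 oocyte comparisons and the 2 of granulosa cells, 0 of the 52 listed genes were called by limma. Of those tested, 2 to 7 had an unadjusted p under 0.05. Over all genes, 2421 to 3962 of 28004 did in oocytes, and 493 and 1106 of 13002 in granulosa cells.

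In granulosa cells Smc1a exceeded the receptor percentile in 6 of 9 libraries and Rad21 and Smc3 in 5 of 9, and each of the other 7 members in 1 to 3 of 9. The counts of Smc1a, Rad21 and Smc3 each include Aged + Unsorted replicate 1, the library that held oocyte markers. Rad21 reached 166 FPKM in Young replicate 1, gave 0 in each of the Aged libraries, and read 33.4 in Aged + Unsorted, 1.84, 0.369 and 8.19 in Aged + LRP1high, and 67.0 and 5.45 in Aged + LRP1low. Smc3 read 55.5 FPKM in Young replicate 1, 0.285 and 0.387 in the Aged libraries, 58.3 in Aged + Unsorted, 5.25, 0.274 and 1.31 in Aged + LRP1high, and 31.8 and 0.697 in Aged + LRP1low. Smc1a read 5.39 FPKM in Young replicate 1, 1.53 and 0.529 in the Aged libraries, 12.2 in Aged + Unsorted, 2.87, 0.271 and 1.58 in Aged + LRP1high, and 13.7 and 2.74 in Aged + LRP1low. Young replicate 1, Aged + Unsorted replicate 1 and Aged + LRP1low replicate 1 thus held the highest 3 values of each of these genes. Stag2 was 31.0 FPKM in Young replicate 1 and 6.82 in Aged + LRP1high replicate 3, the libraries with granulosa markers, and at most 8.52 elsewhere.

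Sgo1, the mitotic shugoshin, read 6.14 FPKM in granulosa Young replicate 1, 0.152 and 0.123 in the Aged libraries, 10.2 in Aged + Unsorted, 1.55, 0.118 and 6.97 in Aged + LRP1high, and 0 in both Aged + LRP1low libraries. Sgo2a read 1.29 FPKM in Young replicate 1, 0.401 and 0.626 in the Aged libraries, 1.34, 0.342 and 0.815 in Aged + LRP1high, and 0 and 0.174 in Aged + LRP1low. Espl1 read 0 in Young replicate 1, 0.123 and 0.437 FPKM in the Aged libraries, 3.996, 0.567 and 0.773 in Aged + LRP1high, and 0.230 and 0.270 in Aged + LRP1low. Leaving aside Aged + Unsorted, Sgo2a and Espl1 were thus below 2 FPKM in all but 1 value. Rec8 and Smc1b were both at or under 0.666 FPKM in the 2 libraries with granulosa markers. Rec8 was at most 3.51 over the 9 granulosa libraries and its highest value, like that of Stag3 at 3.42, was in Aged + LRP1high replicate 1.

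The granulosa library Aged + Unsorted replicate 1 resembled an oocyte library. Its Smc1b (8.44 FPKM), Sgo2a (10.8) and Espl1 (22.7) were far above those of the other 8 granulosa libraries, whose highest values were 0.666, 1.34 and 3.996. Over 21767 genes its log2 values correlated with those of oocyte Aged + Unsorted replicate 2 at r = 0.968, the highest of 210 pairs of libraries. Of 7030 genes at 5 FPKM or more in both, 93.2% had a ratio within 0.5 on the log2 scale of the median ratio. For the members other than Rec8 (0 in both) and Stag3 (0.101 and 0) the ratio of the granulosa to the oocyte library was 0.734 to 0.997.

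Among granulosa cells, 0 of the 8 members that passed the filter (all but Rec8 and Stag3) were called by limma in Aged + LRP1high against Aged, beside 0% of 13002 genes, and 0 of 8 in Aged + LRP1low against Aged, beside 0%. An unadjusted p under 0.05 was found for 0 and 1 of them, beside 1106 and 493 of the 13002 genes. Of these 8, groups did not overlap for 2 in the first comparison, beside 51.8% of all genes tested. Rad21 was higher by 1.72 (SE 1.21, limma adjusted p = 0.466) and Espl1 by 0.92 (SE 0.59, limma adjusted p = 0.461), and Rec8 and Stag3, which were not tested, were higher as well. Groups did not overlap for 5 of the 8 in the second, beside 37.5% of all genes, 30.5% higher and 6.95% lower. The largest difference there was that of Rad21 in Aged + LRP1low, 4.39 on the log2 scale (SE 1.33, unadjusted p = 0.0168 and adjusted p = 0.904 in limma), against a group listed at 0. Smc3 was higher by 2.48 (SE 1.46) and Smc1a by 1.91 (SE 0.85), both at a limma adjusted p of 0.904. Sgo2a and Sgo1 were lower, with differences of -0.48 (SE 0.42, limma adjusted p = 0.953) and -0.19 (SE 0.90, limma adjusted p = 1), as was Stag3, which was not tested. Luteal markers moved with Rad21: the median of 6 was 519 and 3.98 FPKM in Aged + LRP1low and 0.107 and 0.305 in Aged, and their fitted differences had a median of 5.21, with 0 of 6 called and 2 of 6 at an unadjusted p under 0.05 in limma. Their part in the differences of Rad21, Smc1a and Smc3 was not tested. None of the 4 libraries of these 2 groups held granulosa markers at a median of 10 FPKM. Tested as a difference between oocytes and granulosa cells, neither contrast gave a call for any of the 10 members in limma (smallest adjusted p = 0.109 and 0.484), and 1 member in each had an unadjusted p under 0.05, Stag3 in the first and Rad21 in the second.

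Over both cell types, Espl1 came nearest to a call in oocytes against granulosa cells, fitted over all 21 libraries as the mean of the 5 groups. It was higher in oocytes by 1.63 (SE 0.45, limma adjusted p = 0.0577), followed by Sgo2a (1.52, SE 0.59, limma adjusted p = 0.159), Smc1b (1.28, SE 0.51, limma adjusted p = 0.166) and Stag3 (0.83, SE 0.35, limma adjusted p = 0.193). None of 10 members was called, 0 beside 3.00% of 21767 genes. These 4 members had an unadjusted p under 0.05, beside 4663 of the 21767 genes. The median difference over all genes was 0.62. Without the granulosa library Aged + Unsorted replicate 1, the only 1 of its group, the contrast was the mean of the other 4 groups. There the difference of Espl1 was 2.22 and called (limma adjusted p = 0.0107). Espl1 was called as well without oocyte Young replicate 1, Young replicate 2 or Aged + LRP1high replicate 3, at limma adjusted p of 0.0258 to 0.0474. It was called too without either oocyte Aged replicate. In all, only 6 of the 21 fits that each left out 1 library called Espl1. Sgo2a joined it without Young replicate 1 (limma adjusted p = 0.0378), and Rec8 without Aged replicate 2 (limma adjusted p = 0.0417). These 6 settings called 5.11% to 24.3% of all genes, the most without Aged replicate 2. Within Aged + LRP1high libraries alone, Rad21 (limma adjusted p = 0.0372) and Smc3 (limma adjusted p = 0.0433) were called, 2 of 9 members tested beside 12.7% of all genes, and Stag3 turned to -1.01. Of the lists, 3 of 16 genes for centromeric protection were called higher in oocytes (Ppp2r5d by 2.64, Haspin, the kinase that marks the inner centromere, by 2.50, and Ppp2r5c by 2.40), together with Ncapg (2.58), Smc6 (1.80) and Mcm2 (2.19). A further fit kept only libraries that held the markers of their own cell type, 8 of oocytes and 2 of granulosa cells. Its contrast covered only Young and Aged + LRP1high, each with 1 granulosa library left. There Espl1 was higher by 2.09 and Sgo2a by 1.88, differences that rest on those single granulosa libraries.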

How the data were processed

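RNA of 12 oocyte and 9 granulosa cell libraries was measured by sequencing, and groups were taken from the labels. The authors aligned reads with HISAT2 2.2.1 and deposited StringTie 1.3.3b values for each library: FPKM, TPM, scaled to 1 total across libraries, and coverage, the mean read depth over a gene. Gene coordinates in the deposited files equal the GRCm38 annotation for 54587 of 55335 identifiers, although the submitters' processing notes name mm9. The methods state Smart-seq2 libraries and the labels a KAPA stranded kit. Values of identifiers that occur more than once were added up.

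Depth came from coverage divided by FPKM, as the median over 21693 single-exon genes. No counts were used, so counting intervals were not computed and precision rests on the libraries of a group. Genes whose FPKM averaged 1 or more were tested on log2(FPKM + 1) with limma 3.58.1 in R 4.3.3, all groups of a cell type in 1 model, with Benjamini-Hochberg adjustment and the study's criteria (fold change over 1.5, adjusted p under 0.05). A fold on this scale understates the change of low genes. The fit was tested on simulated data. The text names all members with their values in each oocyte library, and in granulosa cells with values or ranges, gives fitted differences where a member was called, had an unadjusted p under 0.05 or did not overlap between groups, and names up to 4 called genes of each list. Members, lists and tests were chosen with earlier results of these data known. The lists of other cohesin subunits, loading and release, centromeric protection, separase control, condensins, SMC5/6 and proliferation were written from general knowledge. Alternatives were a pseudocount of 0.1, no filter, TPM, quantile normalization, a trended robust fit, only the groups compared, a replicate block and each library left out. TPM without dominant genes and the libraries with their own markers were added after seeing the data. The lists of luteal, red blood cell and endothelial markers were used for checks of content only. The name and value of 1 gene that the rule on likeness picks are not reported here.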

Additional observations from a re-analysis of the deposited data

How the results depend on the processing

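Limits of these results lie in the 1 to 3 libraries of a group, in their content and in depth, which reached 0.278 gigabases at the lowest. Of 568 recomputed values for 38 results, 511 kept their direction and their side of the threshold. With each library left out in turn, the number of members called ranged from 0 to 2 for Aged against Young, 0 to 3 for Aged + Unsorted against Aged, 0 to 2 for Aged + LRP1high against Aged, 0 to 1 for Aged + LRP1low against Aged, 0 to 0 for Aged + LRP1high against Aged + LRP1low, where the fit of all libraries called 2, 0 to 0 for both granulosa cell comparisons and 0 to 2 for oocytes against granulosa cells. Those 2 calls also fell to 0 with a pseudocount of 0.1, with quantile normalization and with the replicate block, and the cause was not tested. The count was 3 when only these 2 groups were fitted and in TPM without dominant genes, with Rad21 added. These 2 settings called 66.9% and 50.3% of all genes. In oocytes against granulosa cells, 1 member was called with a pseudocount of 0.1, beside 3.46% of all genes, and 1 in TPM, beside 6.15%. In the Aged + LRP1high libraries alone 2 were called, beside 12.7% of all genes. Under quantile normalization, the difference turned to -0.31 for Espl1 in Aged against Young, -0.31 for Stag2 and -0.018 for Sgo1 in Aged + LRP1low against Aged, and -0.25 for Espl1 in granulosa cells of Aged + LRP1high against Aged. Stag3 in oocytes against granulosa cells turned to -1.01 in the Aged + LRP1high libraries alone. Over all genes, the number called moved between 0 and 9547 for Aged against Young, 0 and 10678 for Aged + Unsorted, 0 and 11409 for Aged + LRP1high and 0 and 11806 for Aged + LRP1low against Aged, 0 and 24357 between the last 2 groups, and 0 and 5330 between cell types.

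With the replicate number as a block, 0 members were called in all 8 comparisons, against 2 in Aged + LRP1high against Aged + LRP1low without it, and the block changed no other member count. Whether same-numbered libraries share mice or a batch is not given in the sources used here. Correlations of their deviations from group means ran from -0.436 to 0.441 in oocytes, over 0.1 in 4 of 21 pairs. Differently numbered oocyte pairs ran from -0.52 to 0.52, over 0.1 in 11 of 36. In granulosa cells, 1 of 6 same-numbered and 1 of 10 other pairs were over 0.1. In a group of 2 libraries the deviations mirror each other, so these values cannot settle a pairing. The set of libraries with their own markers gave no value for the comparisons with Aged + LRP1low or within granulosa cells.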
